A study of Mus musculus with 11 samples.

Results

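The genes of glycolysis and the pentose phosphate pathway were followed in RNA-seq libraries labelled as liver CD4 T cells. They are 37 genes named by symbol, from the glucose transporters to lactate export, pyruvate entry into mitochondria and the pentose phosphate branch, with the regulator Hif1a. All 37 symbols had a row among the 56748 genes of the deposited count table, and Aldoa had 2 rows, so that the genes took 38 rows. The second Aldoa identifier (ENSMUSG00000114515) held 37 reads over all libraries and was too low to test, and values for Aldoa are those of ENSMUSG00000030695, which held 128816 reads. Every member had enough reads to be tested. Of the 11 libraries, 6 carry the genotype label ATG5TLymph-/- and are called Atg5-deficient here, and 5 carry the label wildtype, which the series gives as ATG5fl/fl, the floxed gene without deletion. All mice had received CCl4, a toxin that injures hepatocytes and causes fibrosis, for 5 weeks. The Cre driver behind the deletion, the age and sex of the mice and the number of mice behind each library are not given in the labels, and nothing there says that replicates came from separate mice. The p-values therefore describe the spread among these libraries, which may be technical.

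Glycolysis splits glucose into pyruvate in the cytosol and yields ATP without oxygen, while the pentose phosphate pathway draws glucose 6-phosphate off to make NADPH and ribose for nucleotides. Naive T cells use little glucose. Activated T cells take up far more, turn much of it into lactate and need the pentose branch to copy their DNA, and the transcription factor HIF-1 is a known activator of many genes of this list.

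Libraries held 30699408 to 47564440 reads, so that 3 reads in a library correspond to 0.0679 to 0.0968 CPM (read counts scaled to library size with TMM factors). RNA of Atg5 itself (ENSMUSG00000038160) stood at 17.7, 22.5, 15.2, 19.0, 20.2 and 20.2 CPM in Atg5-deficient libraries, against 21.1, 13.4, 15.7, 14 and 20.4 CPM in wild-type libraries, and was not lower (log2 fold change 0.18, SE 0.14, edgeR adjusted p = 0.488). The count is over the whole gene and the deleted exons are not given in the labels, so it does not check them, and the genotype of each library rests on its label. Summed CD4 T cell markers stood at 3103 to 4583 CPM in Atg5-deficient libraries, against 3149 to 3518 CPM in wild-type ones, with 1 of 10 called higher. Hepatocyte markers were present in all libraries, at 53.8 to 952 CPM in Atg5-deficient libraries, against 37.8 to 547 CPM in wild-type ones, and 0 of 10 were called by edgeR (0 of 10 were at 0 everywhere). Markers of CD8 T cells stood at 4.10 to 6.33 CPM in Atg5-deficient libraries, against 4.48 to 6.55 CPM in wild-type ones, and those of NK cells and ILC1 at 12.5 to 89.0 CPM in Atg5-deficient libraries, against 12.5 to 16.3 CPM in wild-type ones, with 1 of 3 tested called higher. Cholangiocyte markers reached 102 CPM in an Atg5-deficient library, against at most 7.52 CPM in a wild-type one, with 0 of 4 tested called by edgeR. Endothelial markers stood at 120 to 198 CPM in Atg5-deficient libraries, against 123 to 223 CPM in wild-type ones, with 0 of 3 tested called. Those of macrophages and Kupffer cells stood at 5.68 to 20.8 CPM in Atg5-deficient libraries, against 10.2 to 15.2 CPM in wild-type ones. Of these, 0 of 5 tested were called by edgeR. Dendritic cell markers stood at 0.725 to 4.99 CPM in Atg5-deficient libraries, against 0.528 to 1.66 CPM in wild-type ones, with 1 of 2 tested called higher. Over all tested genes 4.43% were called higher and 2.41% lower. The most abundant marker was Eomes in the NK cell and ILC1 list and Itgax in the dendritic cell list. The part of other cells in the results below was not tested. Neutrophil markers reached no more than 0.603 CPM in an Atg5-deficient library, against 0.0551 CPM in a wild-type one. In sums over many cells, fewer cells of a type and less RNA per cell cannot be told apart.

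Most of the genes that passed on the path from glucose to pyruvate were higher in Atg5-deficient libraries, and the pentose phosphate branch did not pass the test. Of 37 members, 10 rose and 2 fell (edgeR quasi-likelihood test, adjusted p under 0.05 over 17987 genes). Over all tested genes, 4.43% were called higher and 2.41% lower. The genes that rose were Slc2a3, Hk1, Gpi1, Pfkp, Aldoa, Gapdh, Pgk1, Eno1, Pkm and Hif1a, and those that fell were Pfkfb4 and Pdk1, whose products regulate the pathway and do not carry its main flux. The log2 fold change was positive in 30 of 37 members, against 49.7% of all tested genes, and the median was 0.36, against 0.00 over all tested genes. With upper-quartile factors 28 members were positive, 6 rose and 2 fell, where 3.25% and 3.81% of all tested genes did. DESeq2 called 16 higher and 2 lower (7.75% and 5.42% of all genes), and limma-voom 19 higher and 3 lower (10.9% and 8.12%). Among the 8 libraries with consecutive title numbers, 5 Atg5-deficient and 3 wild-type, Slc2a3, Aldoa and Eno1 rose and none fell (0.462% and 0.473% of all genes). Leaving out single libraries moved the count of risen genes between 6 and 15. It was 6 without Atg5-deficient replicate 1, 2, 4 or 5 or wild-type replicate 1, 2, 4 or 5, 14 without Atg5-deficient replicate 3, 9 without wild-type replicate 3, and 15 without Atg5-deficient replicate 6. Over all tested genes, 2.9%, 2.56%, 7.96%, 2.81%, 3.59% and 4.94% were called higher without Atg5-deficient replicates 1 to 6 in turn, and 2.18%, 3.92%, 3.16%, 2.31% and 2.31% without wild-type replicates 1 to 5. A core of Slc2a3, Gpi1, Pfkp, Aldoa, Gapdh and Eno1 rose, and Pfkfb4 and Pdk1 fell, in the fit of all libraries and in all 11 fits without 1 library. Over all tested genes 1.96% were called higher and 0.723% lower by that rule.

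**Figure D1:**
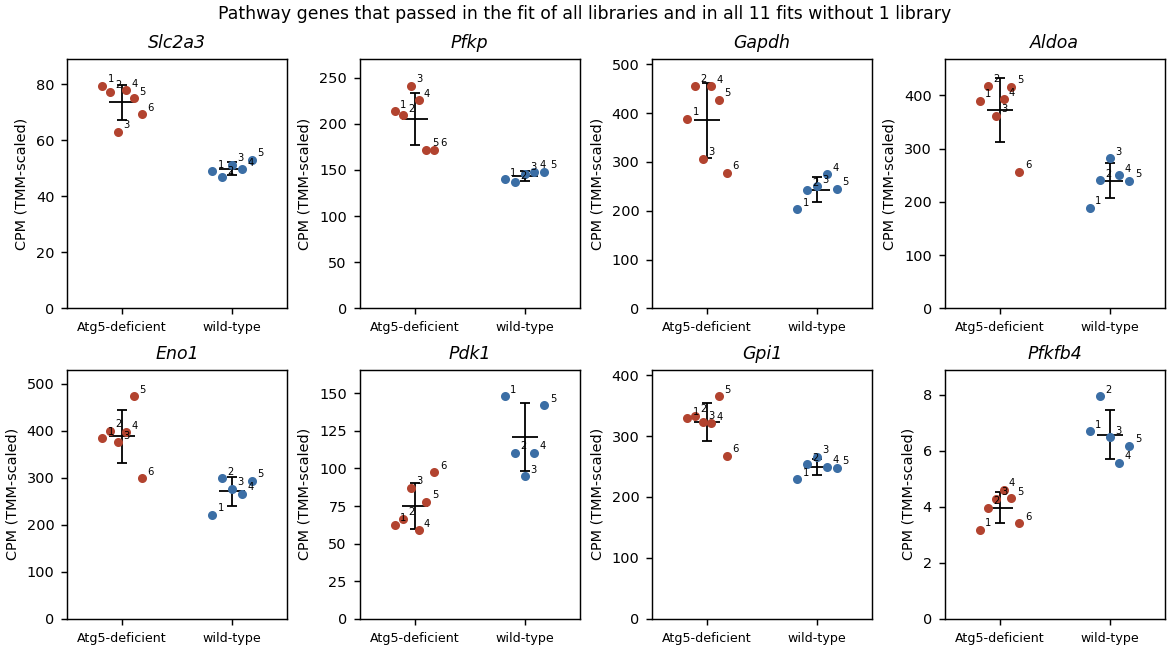
CPM (TMM-scaled) of the 8 genes that passed with all libraries and with each library left out in turn; points are libraries with their replicate number, and bars give the group mean and SD (6 Atg5-deficient, 5 wild-type). Atg5-deficient libraries stand above all wild-type libraries for Slc2a3, Gpi1, Pfkp and Gapdh and below all of them for Pfkfb4, while Aldoa, Eno1 and Pdk1 overlap.

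Hif1a encodes the oxygen-regulated subunit of HIF-1, a protein controlled mainly by degradation, so its RNA is not a measure of its activity. Its RNA had 227 to 500.5 CPM in Atg5-deficient libraries (median 318), against 152, 170, 185, 236 and 279.6 CPM in wild-type libraries. The groups overlapped, since the lowest Atg5-deficient value, that of replicate 6, was below 2 wild-type values. Hif1a rose by a log2 fold change of 0.77 (SE 0.21, edgeR adjusted p = 0.0470) and also passed in 2 of the 11 fits with 1 library left out. The call was lost without a filter on low counts (adjusted p = 0.137), with upper-quartile factors (adjusted p = 0.0714) and in the 8 libraries with consecutive title numbers (adjusted p = 0.123). Its exons share 148 bases with Gm49321 on the same strand, whose own count was 5.08% of that of Hif1a.

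Promoter sequences show where ACGTG, a form of the core of the HIF-1 element, lies in front of genes of the pathway. They are taken from RefSeq (GRCm38.p6) as the 250 bases before an annotated start, and 36 of the 37 genes had entries, Slc2a3 not among them, with 52 starts in all. The 3 risen genes with the smallest p and an entry are shown, Aldoa with its outermost 2 of 3 starts, and Ldha was added after the motif counts were seen, as it has the start with the most matches. Capitals mark ACGTG on either strand, which also lies within the E-box CACGTG.

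Pfkp, chr13:6648772-6649021, minus strand: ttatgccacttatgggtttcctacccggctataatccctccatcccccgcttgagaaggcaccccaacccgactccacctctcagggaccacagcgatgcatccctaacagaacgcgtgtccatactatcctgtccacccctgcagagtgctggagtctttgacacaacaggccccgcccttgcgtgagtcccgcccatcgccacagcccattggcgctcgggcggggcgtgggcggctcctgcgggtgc

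Gapdh, chr6:125165774-125166023, minus strand: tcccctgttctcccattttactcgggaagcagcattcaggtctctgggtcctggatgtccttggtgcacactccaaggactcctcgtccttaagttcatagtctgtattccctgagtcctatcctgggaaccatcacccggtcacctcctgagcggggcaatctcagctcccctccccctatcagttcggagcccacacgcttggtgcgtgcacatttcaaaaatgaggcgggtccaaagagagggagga

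Aldoa, downstream start, chr7:126799179-126799428, minus strand: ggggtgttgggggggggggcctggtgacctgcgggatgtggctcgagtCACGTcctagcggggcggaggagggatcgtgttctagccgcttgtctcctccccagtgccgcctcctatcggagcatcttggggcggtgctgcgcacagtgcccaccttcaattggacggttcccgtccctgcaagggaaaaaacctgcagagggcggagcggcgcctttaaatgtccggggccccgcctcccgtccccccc

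Aldoa, upstream start, chr7:126800448-126800697, minus strand: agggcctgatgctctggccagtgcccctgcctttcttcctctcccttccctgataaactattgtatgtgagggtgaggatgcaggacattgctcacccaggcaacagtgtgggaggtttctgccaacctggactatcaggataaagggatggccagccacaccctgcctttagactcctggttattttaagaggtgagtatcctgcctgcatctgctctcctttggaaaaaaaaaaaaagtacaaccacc

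Ldha, chr7:46845554-46845803, plus strand: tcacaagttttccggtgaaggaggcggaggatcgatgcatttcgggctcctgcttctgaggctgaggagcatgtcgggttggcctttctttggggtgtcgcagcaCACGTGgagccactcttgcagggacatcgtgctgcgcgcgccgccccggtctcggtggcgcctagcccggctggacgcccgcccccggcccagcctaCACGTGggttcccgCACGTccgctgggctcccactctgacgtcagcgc

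The Ldha window holds ACGTG at 3 places, of which 2 are the palindrome CACGTG and so match on both strands. The windows of Pfkp and Gapdh and the upstream one of Aldoa hold no ACGTG, and the downstream one of Aldoa holds 1. The core of the HIF-1 element can also read GCGTG, which was not searched or marked. Those letters do occur in the printed windows of Pfkp and Gapdh, so a window without capitals can still hold the core. ACGTG was found in 17 of the 52 starts of member genes (32.7%) and in 16.6% of 32851 starts of all genes. Member windows were also richer in G and C, with a median of 60.4% against 52.4%, and the part of base composition in the motif share was not tested. By outcome, 5 of 15 starts of genes that rose, 0 of 3 starts of genes that fell and 12 of 34 starts of genes that did not pass held it. A match is a description of letters, and no match says only that they are not in this window.

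Glucose enters T cells through Slc2a1 (GLUT1) and Slc2a3 (GLUT3, a high-affinity transporter). Slc2a3 (ENSMUSG00000003153, chromosome 6, 122727809 to 122801640, minus strand, GRCm38) had 63.1 to 79.4 CPM in Atg5-deficient libraries (median 76.0), against 46.7, 48.8, 49.6, 51.1 and 53.0 CPM in wild-type libraries. The groups did not overlap, and Slc2a3 rose by a log2 fold change of 0.56 (SE 0.08, edgeR adjusted p = 0.00252), with the smallest p of the 37 members. Slc2a1 had 34.2 to 118 CPM in Atg5-deficient libraries (median 59.9), against 32.3, 32.8, 46.5, 47.3 and 47.7 CPM in wild-type libraries. Its fold change was as large (log2 0.65, SE 0.26), but it did not pass (edgeR adjusted p = 0.155). Replicate 3 stood at 118 CPM and replicate 6 at 34.2 CPM within the Atg5-deficient group. DESeq2 called Slc2a1 higher (adjusted p = 0.0414). Per length of exon, Slc2a1 was the more abundant, at 18.5 ± 8.01 against 11.8 ± 2.29 RPKM, and Slc2a3 had 10.2 ± 0.862 against 6.88 ± 0.328 RPKM (Atg5-deficient, n = 6, against wild-type, n = 5, SD). By mean CPM the order was the reverse, at 64.9 against 41.3 for Slc2a1 and 73.6 against 49.8 for Slc2a3. The exon lengths used, over all annotated forms, were 3506 and 7245 bases.

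Hexokinases phosphorylate glucose and so trap it in the cell, and Gpi1 turns the product into fructose 6-phosphate. Hk1, the housekeeping hexokinase, had 142 to 239 CPM in Atg5-deficient libraries (median 194), against 139.8, 143, 146, 151 and 151 CPM in wild-type libraries. Only replicate 3 of the Atg5-deficient libraries lay within the wild-type range. Hk1 rose by a log2 fold change of 0.39 (SE 0.11, adjusted p = 0.0461) in edgeR's test, a call kept in 2 of the 11 fits without 1 library and lost with upper-quartile factors (adjusted p = 0.0606). Hk2, the inducible hexokinase, had 7.69 to 25.9 CPM in Atg5-deficient libraries (median 14.6), against 2.77, 3.94, 5.22, 7.10 and 10.7 CPM in wild-type libraries. Its log2 fold change of 1.36 (SE 0.39) was the second largest of the members but missed the threshold (edgeR adjusted p = 0.0551), with 4 of 6 Atg5-deficient libraries higher than any wild-type one. Hk2 passed with DESeq2 (adjusted p = 0.0151), with limma-voom (adjusted p = 0.0154), and in edgeR fits without Atg5-deficient replicate 6 or wild-type replicate 3. Gpi1 had 267 to 365 CPM in Atg5-deficient libraries (median 326), against 229, 247, 249.6, 253 and 266 CPM in wild-type libraries. The groups stood apart, by less than 1 CPM at the nearest pair, and Gpi1 rose (log2 fold change 0.37, SE 0.08, edgeR adjusted p = 0.0172).

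Phosphofructokinase is the committed step of glycolysis, and its subunits come from 3 genes named for liver (Pfkl), muscle (Pfkm) and platelet (Pfkp). Pfkp had 172 to 241 CPM in Atg5-deficient libraries (median 212), against 137, 139.8, 146, 148 and 148 CPM in wild-type libraries. The groups did not overlap, and Pfkp rose by a log2 fold change of 0.52 (SE 0.09, edgeR adjusted p = 0.00853). Its exons share 748 bases with Pitrm1 on the other strand, whose own count was 19.4% of that of Pfkp. Pfkl had 60.2 to 158 CPM in Atg5-deficient libraries, against 66.4 to 93.9 CPM in wild-type ones and did not pass (log2 fold change 0.26, 95% interval -0.14 to 0.67). Pfkm, the least abundant, had 5.69 to 13.9 CPM in Atg5-deficient libraries, against 10.1 to 12.6 CPM in wild-type ones (log2 fold change -0.18, 95% interval -0.55 to 0.19). Replicate 3 was the Atg5-deficient library with the most Pfkl (158 CPM) and the least Pfkm (5.69 CPM). Gm26513, on the same strand as Pfkm with 341 shared exonic bases, had a count of its own that was 8.71% of that of Pfkm. For Senp1, on the other strand with 18 shared exonic bases, it was 621.1%.

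Pfkfb3 and Pfkfb4 encode enzymes that make and break down a fructose bisphosphate that is the main activator of phosphofructokinase. Pfkfb4 (ENSMUSG00000025648, chromosome 9, 108991778 to 109032228, plus strand) had 3.19 to 4.61 CPM in Atg5-deficient libraries (median 4.12), against 5.56, 6.16, 6.47, 6.69 and 7.93 CPM in wild-type libraries. Every Atg5-deficient library was below every wild-type library, and Pfkfb4 fell by 0.73 on the log2 scale (SE 0.17, edgeR adjusted p = 0.0191), a call that was lost without a filter on low counts (adjusted p = 0.0531). Groups of this kind, with Atg5-deficient libraries all lower, made up 2.08% of all tested genes, and 1 member was among them. Those with Atg5-deficient libraries all higher made up 2.78%, with 4 members among them. Pfkfb3, more abundant at 43.7 ± 4.22 CPM in Atg5-deficient (n = 6) and 38.5 ± 3.69 CPM in wild-type libraries (n = 5, SD), did not pass (log2 fold change 0.18, edgeR adjusted p = 0.253).

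Aldolase cuts the hexose into triose phosphates, which Tpi1 converts into each other. Aldoa (chromosome 7, 126795234 to 126800751, minus strand) had 257 to 418 CPM in Atg5-deficient libraries (median 391), against 189, 239, 240.4, 250.1 and 282 CPM in wild-type libraries. All but replicate 6 of the Atg5-deficient libraries were above the highest wild-type library, and Aldoa rose (log2 fold change 0.63, SE 0.13, edgeR adjusted p = 0.0119). Aldoc, the brain form, was rare at 3.94 ± 0.801 CPM in Atg5-deficient libraries, against 2.76 ± 0.800 CPM in wild-type ones (SD, n = 6 and n = 5) and did not pass. Tpi1 had 25.2 to 78.0 CPM in Atg5-deficient libraries (median 52.9), against 20.0, 22.6, 27.7, 30.6 and 43.1 CPM in wild-type libraries. Its difference was larger than that of Aldoa (log2 fold change 0.91, SE 0.27), but its spread was wider and it did not pass with edgeR (adjusted p = 0.0627). DESeq2 called Tpi1 higher (adjusted p = 0.00283), and so did limma-voom (adjusted p = 0.0204).

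The payoff phase makes ATP and NADH from triose phosphates. Gapdh, often taken as a constant reference gene, had 278 to 456 CPM in Atg5-deficient libraries (median 408), against 203, 243, 246, 250.2 and 275 CPM in wild-type libraries. The lowest Atg5-deficient library stood just above the highest wild-type library, and Gapdh rose by a log2 fold change of 0.66 (SE 0.13, edgeR adjusted p = 0.0119). Processed copies of Gapdh are many, and 78 annotated genes matched its transcript at 95% identity over at least 200 bases. Their separate counts together were 2.27% of that of Gapdh. The count of Iffo1 on the other strand, sharing 68 exonic bases, was 8.75% of it. Eno1, the ubiquitous enolase, had 299 to 473 CPM in Atg5-deficient libraries (median 391), against 221, 266, 277, 293 and 299.5 CPM in wild-type libraries. Replicate 6 of the Atg5-deficient libraries lay within the wild-type range, and the other 5 were above it (log2 fold change 0.52, SE 0.11, edgeR adjusted p = 0.0155). Pgk1 and Pkm, whose products make ATP directly, rose by log2 fold changes of 0.62 (SE 0.16, edgeR adjusted p = 0.0400) and 0.45 (SE 0.12, adjusted p = 0.0388), each in only 2 of the 11 fits without 1 library. Pgk1 had 42.6 to 90.4 CPM in Atg5-deficient libraries, against 35.3 to 52.2 CPM in wild-type ones, and Pkm 441 to 704 CPM in Atg5-deficient libraries, against 374 to 493.3 CPM in wild-type ones. The calls of Pgk1 and Pkm were also lost with upper-quartile factors (adjusted p = 0.0539 and 0.0563). Counts per gene do not separate the splice forms of Pkm. Its exons share 767 bases with Gm49759 on the same strand, whose own count was 12.4% of that of Pkm.

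The other members of this phase did not pass in the edgeR fit of all libraries. Pgam1, phosphoglycerate mutase, had 13.2 to 21.9 CPM in Atg5-deficient libraries, against 10.8 to 15.9 CPM in wild-type ones (log2 fold change 0.36, edgeR adjusted p = 0.130). It was called higher by limma-voom (adjusted p = 0.034) and by edgeR without Atg5-deficient replicate 6 (adjusted p = 0.0476). Eno3, the muscle enolase, was the member of this phase with a negative value, at 6.65 ± 1.14 CPM in Atg5-deficient libraries, against 8.48 ± 0.774 CPM in wild-type ones (SD, n = 6 and n = 5), with a log2 fold change of -0.35 (edgeR adjusted p = 0.1795). Limma-voom called Eno3 lower (adjusted p = 0.0375). Bpgm, which makes bisphosphoglycerate and is best known from red cells, varied least of this phase, at 15.99 ± 0.656 CPM in Atg5-deficient libraries, against 14.4 ± 1.25 CPM in wild-type ones (SD, n = 6 and n = 5). Erythroid markers were low in all libraries, at 2.25 to 12.7 CPM in Atg5-deficient libraries, against 3.66 to 14.4 CPM in wild-type ones, with 0 of 6 tested called by edgeR.

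**Figure D2:**
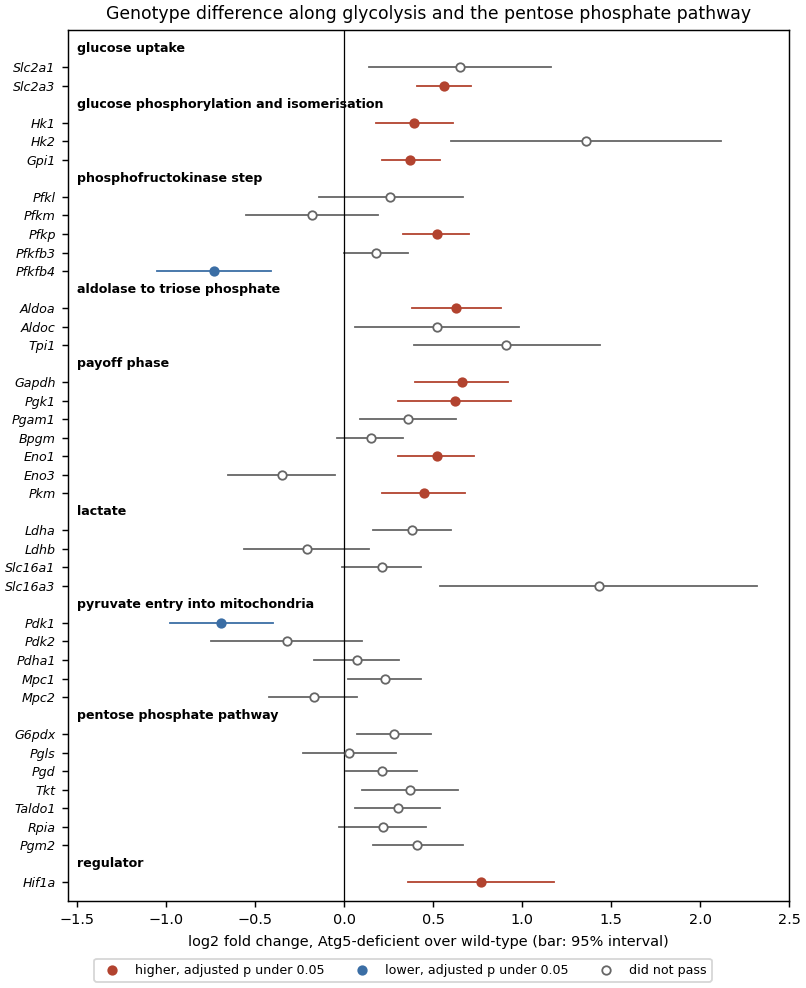
Log2 fold change of each member (Atg5-deficient over wild-type), by step of the pathway; bars give the 95% interval, and filled points passed at an adjusted p under 0.05. The 10 genes that rose lie on the path from glucose uptake to pyruvate or are Hif1a, the 2 that fell are Pfkfb4 and Pdk1, and all 7 pentose phosphate genes are open points between 0.03 and 0.41.

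Lactate dehydrogenase and the monocarboxylate transporters dispose of pyruvate as lactate. Ldha, the form that favours lactate production, had 235 to 353 CPM in Atg5-deficient libraries (median 338), against 204, 234, 249, 258 and 262 CPM in wild-type libraries. It lay just outside the threshold (log2 fold change 0.38, SE 0.11, edgeR adjusted p = 0.0551), with all but replicate 6 of the Atg5-deficient libraries higher than any wild-type one. Ldha passed with DESeq2 (adjusted p = 0.0230), with limma-voom (adjusted p = 0.00383) and in edgeR without a low-count filter (adjusted p = 0.0126). It also passed in 2 of the 11 fits without 1 library, those without Atg5-deficient replicate 3 or 6. Ldhb had 5.79 to 12.7 CPM in Atg5-deficient libraries, against 9.53 to 13.9 CPM in wild-type ones (log2 fold change -0.21, edgeR adjusted p = 0.526). Slc16a3 (MCT4), the exporter of strongly glycolytic cells, had 6.75 to 38.0 CPM in Atg5-deficient libraries (median 16.3), against 3.06, 5.23, 5.53, 6.75 and 11.9 CPM in wild-type libraries. Its log2 fold change of 1.43 (SE 0.45) was the largest of all members, yet the groups overlapped and it did not pass (edgeR adjusted p = 0.0806). Slc16a3 passed without Atg5-deficient replicate 6, with DESeq2 (adjusted p = 0.0232) and with limma-voom (adjusted p = 0.0222). Slc16a1 (MCT1) had 20.7 to 29.8 CPM in Atg5-deficient libraries, against 17.5 to 23.3 CPM in wild-type ones and did not pass (log2 fold change 0.21).

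At the mitochondrial gate, Pdk1 and Pdk2 encode kinases that switch off pyruvate dehydrogenase, of which Pdha1 encodes a subunit, and Mpc1 and Mpc2 form the pyruvate carrier. Pdk1 (ENSMUSG00000006494, chromosome 2, 71873224 to 71903858, plus strand) had 58.9 to 97.5 CPM in Atg5-deficient libraries (median 72.2), against 94.8, 110.3, 110.3, 142 and 148 CPM in wild-type libraries. All but replicate 6 of the Atg5-deficient libraries were below the lowest wild-type library. Pdk1 fell by 0.69 on the log2 scale (SE 0.15, edgeR adjusted p = 0.0157), opposite in sign to Hif1a and to the enzymes that rose. Pdk2 (log2 fold change -0.32), Pdha1 (0.07), Mpc1 (0.23) and Mpc2 (-0.17) did not pass, with edgeR adjusted p from 0.204 to 0.778. Pdk2 had 3.23 to 7.74 CPM in Atg5-deficient libraries, against 5.36 to 8.55 CPM in wild-type ones, and Pdha1 76.0 to 136 CPM, against 82.3 to 104 CPM. Mpc1 kept to 13.9 to 14.96 CPM in Atg5-deficient libraries, against 11.1 to 14.7 CPM in wild-type ones, and Mpc2 to 10.6 to 15.9 CPM, against 14.2 to 17.2 CPM. The separate count of near-identical copies of Mpc1 was 14.3% of that of Mpc1. For Pdha1 the sign turned with upper-quartile factors and without Atg5-deficient replicate 5. Its 95% interval on the log2 scale was -0.17 to 0.31.

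None of the 7 pentose phosphate members passed, and all 7 had positive log2 fold changes, from 0.03 (Pgls) to 0.41 (Pgm2). G6pdx, the first and rate-setting enzyme, had 31.2 to 50.4 CPM in Atg5-deficient libraries (median 38.3), against 30.03, 30.8, 33.6, 34.1 and 34.4 CPM in wild-type libraries. Of the Atg5-deficient libraries, replicate 3 alone lay within the wild-type range, and G6pdx did not pass (log2 fold change 0.28, SE 0.11, edgeR adjusted p = 0.132). Tkt and Taldo1, of the non-oxidative part that links pentoses back to glycolysis, had a like pattern over the libraries. Tkt had 91.7 to 181 CPM in Atg5-deficient libraries (median 132), against 95.7, 97.9, 99.6, 104 and 123 CPM in wild-type libraries. Taldo1 had 67.5 to 120.1 CPM in Atg5-deficient libraries (median 97.3), against 71.4, 72.5, 74.2, 75.0 and 90.4 CPM in wild-type libraries. For both genes replicate 3 was lower than every wild-type library and replicate 5 was the highest of all libraries.

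The calls in the pentose branch changed with 1 library. Without Atg5-deficient replicate 3, G6pdx, Tkt, Taldo1 and Pgm2 passed and were higher. With limma-voom, which weights libraries by quality, the same 4 passed, at adjusted p = 0.0279, 0.0121, 0.00916 and 0.0112. Pgm2, whose human counterpart interconverts ribose phosphates, had 14.97 to 25.8 CPM in Atg5-deficient libraries, against 12.9 to 17.5 CPM in wild-type ones (edgeR adjusted p = 0.0707), and DESeq2 called it higher (adjusted p = 0.0347). Pgd (log2 fold change 0.21, adjusted p = 0.225), Rpia (0.22, adjusted p = 0.319) and Pgls (0.03, adjusted p = 0.917) were further from the threshold in edgeR's test. Pgd had 33.7 to 47.1 CPM in Atg5-deficient libraries, against 29.5 to 35.7 CPM in wild-type ones, Rpia 17.2 to 26.5 CPM, against 16.3 to 22.2 CPM, and Pgls 17.5 to 23.4 CPM, against 16.4 to 26.7 CPM. The sign of Pgls turned in 5 of the other fits. G6pdx shares 418 exonic bases with Ikbkg on the other strand, whose own count was 112.8% of that of G6pdx. Pgls shares 776 with Fam129c on the same strand, whose count was 17.7% of that of Pgls. The strand setting of the counting is not given in the labels.

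**Figure D3:**
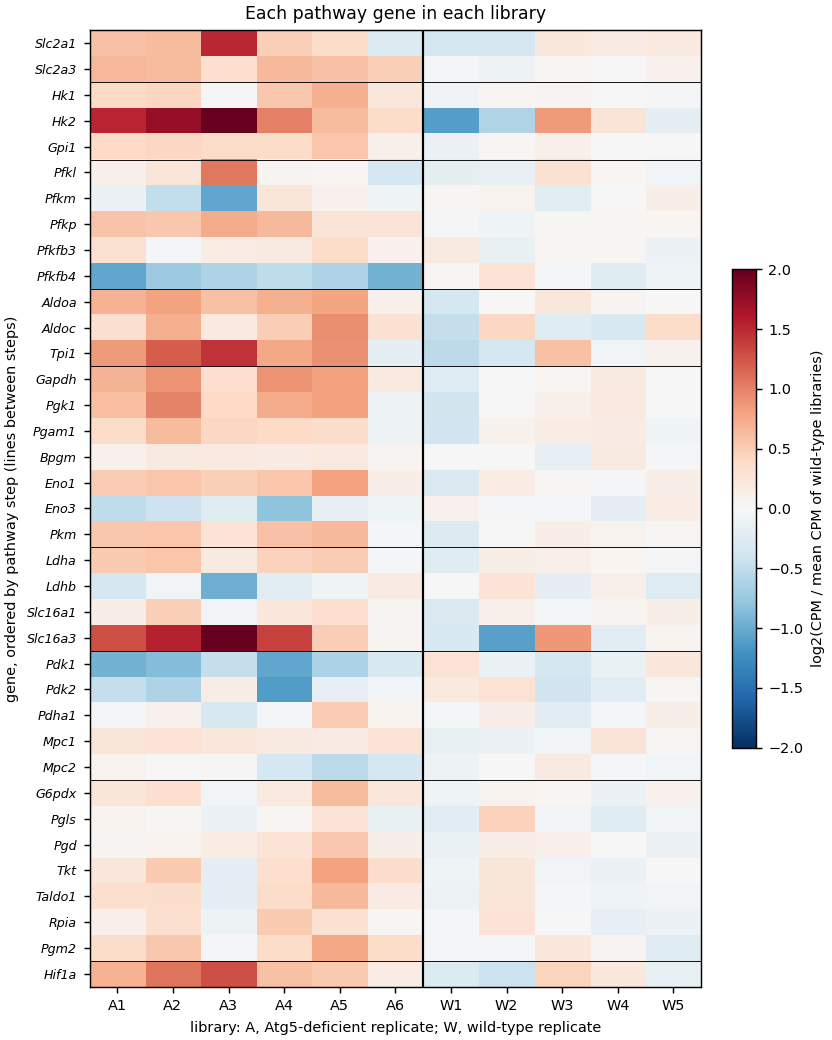
Each member (rows, by pathway step) in each library (columns; A, Atg5-deficient replicates 1 to 6; W, wild-type replicates 1 to 5), as log2 of CPM over the wild-type mean. Columns A3 and A6 differ from the other Atg5-deficient columns: A3 is the darkest red of them for Slc2a1, Hk2, Pfkl, Tpi1, Slc16a3 and Hif1a and near white or blue for most pentose genes, and A6 is pale or blue for Tpi1, Pgk1, Pgam1, Pkm and Ldha.

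The members did not all vary together in the Atg5-deficient libraries. Replicate 5 had the highest value of its group for 14 of the 37 genes, among them Hk1, Gpi1, Eno1, Pkm, G6pdx, Tkt and Taldo1. Replicate 3 had the highest for 8 genes, Slc2a1, Hk2, Pfkl, Pfkp, Tpi1, Slc16a3, Pdk2 and Hif1a, and the lowest for 12, among them Hk1, Pfkm, Ldhb and 5 pentose genes. Replicate 6 had the lowest for 16, including Aldoa, Gapdh, Pgk1, Eno1, Pkm and Ldha. In the wild-type group replicate 3 had the highest value for 12 genes. Of these, Hk1, Gpi1, Aldoa, Pkm, Mpc2 and Pgm2 peaked in Atg5-deficient libraries other than replicate 3. The others were Slc2a1, Hk2, Pfkl, Tpi1, Slc16a3 and Hif1a, so that these 6 genes peaked in the same library within each genotype. That grouping was seen in the values and has no test. All but Hif1a were the 5 members of widest spread in Atg5-deficient libraries, with a coefficient of variation of 62.9% for Slc16a3, 45.6% for Hk2 and 43.3% for Slc2a1 there, while Slc2a3 had 8.49%.

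Cell cycle RNA differed between the same libraries. Of 25 cell cycle genes, 15 rose and none fell, with a median log2 fold change of 1.18, beside 4.43% higher, 2.41% lower and a median of 0.00 over all tested genes. Summed they had 707 to 1621 CPM in Atg5-deficient libraries, against 692, 702, 754, 824 and 891 CPM in wild-type libraries. Atg5-deficient replicate 3 had 707 CPM, within the wild-type range, and replicate 5 the highest sum, 1621 CPM. Replicate 6 had 1468 CPM and so stood high for the cell cycle, with Mki67, the proliferation marker, at 462.4 CPM. The count of risen cell cycle genes was 9 without wild-type replicate 1 or 4, and 1 in the 8 libraries with consecutive title numbers, where 0.462% of all genes were called higher. The part of cell cycle RNA in the differences of the pathway genes was not tested. All members together made up 0.344% to 0.475% of the reads in Atg5-deficient libraries and 0.285% to 0.330% in wild-type libraries.

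Where a step has isozymes from several genes, the ratio within a library shows which form changed more, free of library scaling. Of 10 pairs, 2 passed an exact two-sided permutation test over every way to assign genotype to the libraries, with p-values adjusted over the pairs. The log2 ratio of Pfkfb3 to Pfkfb4 counts was 3.47 ± 0.25 in Atg5-deficient libraries (SD, n = 6), against 2.56 ± 0.27 in wild-type libraries (SD, n = 5), with an exact permutation p = 0.00216, the smallest this design can give (adjusted p = 0.0217). All 6 Atg5-deficient libraries, from 3.23 to 3.89, were above all wild-type libraries, from 2.12 to 2.81. The log2 ratio of Eno1 to Eno3 was 5.87 ± 0.37 in Atg5-deficient (n = 6) and 4.99 ± 0.23 in wild-type libraries (SD, n = 5), again without overlap (exact permutation p = 0.00433, adjusted p = 0.0217). Both pairs passed in all 11 tests without 1 library. Among the 8 libraries with consecutive title numbers the differences were 0.93 and 0.87, and so few libraries leave the test almost no room to pass after adjustment.

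**Figure D4:**
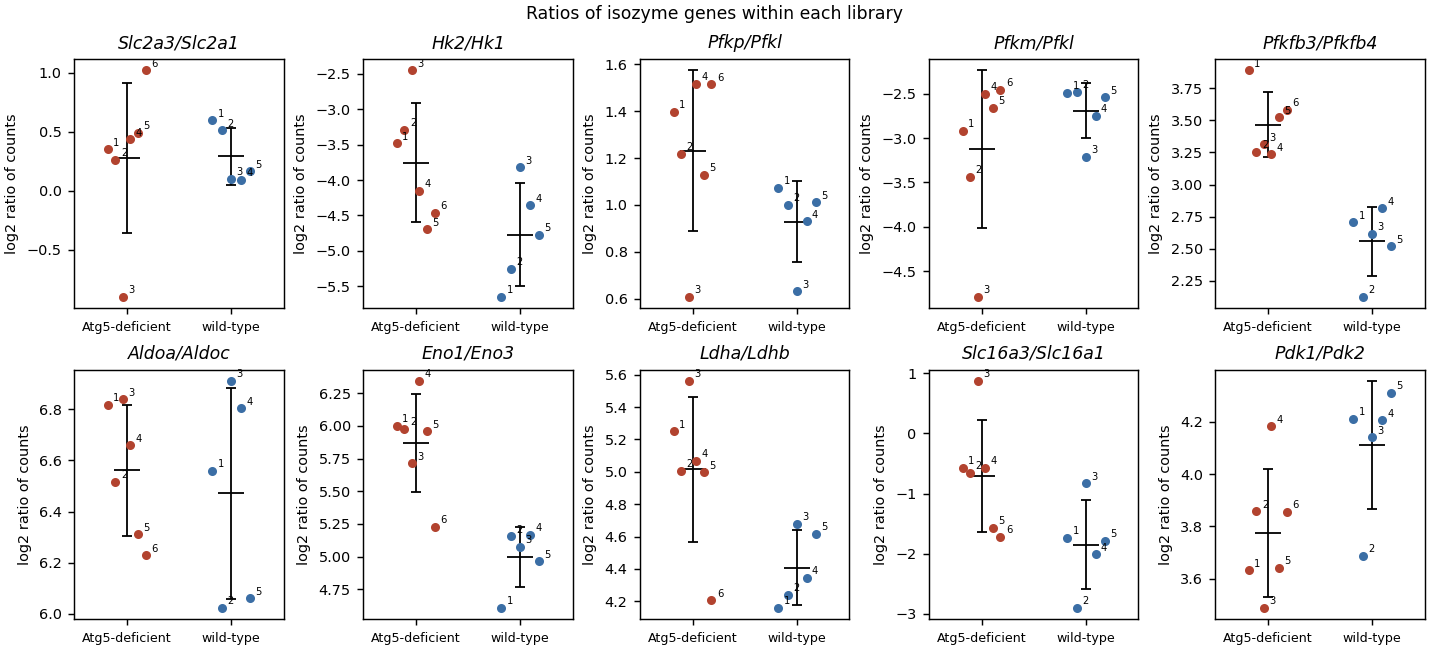
Log2 ratio of the counts of 2 isozyme genes within each library, for 10 pairs; points are libraries with their replicate number, and bars give the group mean and SD. The groups do not overlap for Pfkfb3/Pfkfb4 and Eno1/Eno3 and overlap for the other 8 pairs; Atg5-deficient replicate 3 stands apart for Slc2a3/Slc2a1, Pfkm/Pfkl and Slc16a3/Slc16a1.

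The other 8 pairs did not pass. The smallest p among them was that of Ldha to Ldhb, with a difference of 0.61 on the log2 scale (5.01 ± 0.45 in Atg5-deficient, n = 6, and 4.41 ± 0.23 in wild-type libraries, n = 5, SD, exact permutation p = 0.0325, adjusted p = 0.104). Pdk1 to Pdk2 had a difference of -0.33 (exact permutation p = 0.0498, adjusted p = 0.104), Slc16a3 to Slc16a1 one of 1.15 (exact permutation p = 0.0519, adjusted p = 0.104) and Hk2 to Hk1 one of 1.01 (exact permutation p = 0.0671, adjusted p = 0.112). Pfkp to Pfkl (0.30), Pfkm to Pfkl (-0.43), Aldoa to Aldoc (0.09) and Slc2a3 to Slc2a1 (-0.02) had exact permutation adjusted p from 0.148 to 0.968. Ldha to Ldhb and Slc16a3 to Slc16a1 passed without Atg5-deficient replicate 6, Slc16a3 to Slc16a1 also without wild-type replicate 3, and Pfkp to Pfkl (0.43) without Atg5-deficient replicate 3. For Slc2a3 to Slc2a1 the difference was 0.22 without Atg5-deficient replicate 3.

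Per length of exon, 1 form prevailed at most steps. In RPKM, Aldoa had 128 ± 20.7 in Atg5-deficient libraries (SD, n = 6), against 82.4 ± 11.5 in wild-type libraries (SD, n = 5), and Aldoc 1.21 ± 0.245 and 0.845 ± 0.245. Ldha stood at 94.9 ± 14.6 RPKM in Atg5-deficient libraries, against 72.9 ± 7.09 RPKM in wild-type ones, and Ldhb at 6.29 ± 1.497 and 7.27 ± 1.11 RPKM. The phosphofructokinase genes were closer together, with Pfkp at 15.3 ± 2.12 RPKM in Atg5-deficient libraries, against 10.7 ± 0.381 RPKM in wild-type ones, Pfkl at 13.7 ± 5.14 and 11.4 ± 1.64 RPKM, and Pfkm at 3.09 ± 0.881 and 3.50 ± 0.289 RPKM. In the wild-type libraries Pfkp and Pfkl did not differ beyond their spread in RPKM. By CPM they did not overlap there, with Pfkp at 136.8 to 148.2 CPM and Pfkl at 66.41 to 93.93 CPM. The union exon lengths behind the RPKM were 13401 bases for Pfkp and 6675 for Pfkl. Pkm, at 123 ± 20.2 RPKM in Atg5-deficient libraries, against 90.1 ± 9.06 RPKM in wild-type ones, and Aldoa had the highest RPKM of the members. Their ranges overlapped in both groups. Such ranks rest on union exon lengths, which take in the exons of all annotated forms (5001 bases for Pkm, 2911 for Aldoa, 4133 for Gapdh). By mean CPM in Atg5-deficient libraries, Pkm (613.5), Eno1 (388) and Gapdh (385) stood above Aldoa (372).

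Among 45 further genes of the pathway, such as tissue-specific isozymes, 35 were tested, and 0 rose and 1 fell by edgeR. Over all tested genes 4.43% were called higher and 2.41% lower, so that 1 fallen gene (2.86%) is near the background. Of the 35, 8 had an unadjusted p under 0.05, against 23.4% of all tested genes. DESeq2 and limma-voom each called 3 of these further genes higher, a share near that over all genes (7.75% and 10.9%). DESeq2 called 1 lower and limma-voom 4, beside 5.42% and 8.12% of all genes. Pfkfb2, of the same family as Pfkfb3, fell (log2 fold change -0.54, SE 0.15, edgeR adjusted p = 0.0411) to 6.49 to 10.7 CPM in Atg5-deficient libraries, against 10.2 to 14.98 CPM in wild-type libraries, and did so in 3 of the 11 fits without 1 library. Pdk3, another pyruvate dehydrogenase kinase gene, had the reverse sign to Pdk1 and no overlap between groups, at 13.6 to 21.2 CPM in Atg5-deficient libraries, against 10.9 to 13.5 CPM in wild-type ones, but lay outside the threshold (log2 fold change 0.42, adjusted p = 0.0512 in edgeR's test). Bsg, the chaperone of the lactate transporters, had a log2 fold change of 0.34 (edgeR adjusted p = 0.0687) and Pgm1, phosphoglucomutase, one of 0.41 (edgeR adjusted p = 0.0788).

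Of 28 further regulators and known targets of HIF-1, 26 were tested, 4 rose and none fell, with a median log2 fold change of 0.16, beside 4.43% higher, 2.41% lower and a median of 0.00 over all tested genes. Anxa2, an annexin, rose by 1.21 (SE 0.24, edgeR adjusted p = 0.0129), to 108 ± 32.4 CPM in Atg5-deficient libraries (n = 6), against 46.6 ± 9.75 CPM in wild-type libraries (SD, n = 5), in all 11 fits without 1 library as well. Ndrg1 (0.56, edgeR adjusted p = 0.0388), Ddit4, an inhibitor of mTORC1 (0.42, adjusted p = 0.0461), and Ero1l, an oxidase of the endoplasmic reticulum (0.45, adjusted p = 0.0461), passed in 2 or 3 of them. Egln3 (0.70, adjusted p = 0.0597) and Egln1 (0.35, adjusted p = 0.0618), which encode prolyl hydroxylases that mark HIF-1 alpha for degradation, lay outside the threshold in edgeR's test. The count of risen genes in this list was 1 with upper-quartile factors and without Atg5-deficient replicate 1, 2 or 5 or wild-type replicate 1, 4 or 5, and 2 without wild-type replicate 2. A count of 1 is near the background of those fits, which called 3.25% of all genes higher with upper-quartile factors and 2.18% to 3.59% without those single libraries.

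Regulators of nutrient use went both ways. Of 14 genes, 3 rose and 2 fell, with a median log2 fold change of 0.05, beside 4.43% higher, 2.41% lower and a median of 0.00 over all tested genes. Txnip and Arrdc4, related arrestins that restrain glucose uptake and are known to follow the same glucose-sensing factor, had opposite signs. Txnip fell by 0.56 on the log2 scale (SE 0.14, edgeR adjusted p = 0.0266), to 1025 ± 180 CPM in Atg5-deficient libraries (n = 6), against 1515 ± 248 CPM in wild-type libraries (SD, n = 5), without overlap. Arrdc4 rose by 0.86 (SE 0.20, edgeR adjusted p = 0.0208), to 26.4 ± 5.00 CPM in Atg5-deficient libraries (n = 6), against 14.6 ± 4.60 CPM in wild-type libraries (SD, n = 5). Txnip passed in 7 and Arrdc4 in 9 of the 11 fits without 1 library. Irf4, a factor of T cell activation that supports glycolysis (0.56, adjusted p = 0.0220), and the kinase gene Akt1 (0.40, adjusted p = 0.0486) rose, and Tcf7, a factor of naive cells (-0.56, adjusted p = 0.0148), fell in edgeR's test. Myc, a known activator of glycolytic genes, did not pass (log2 fold change -0.19, edgeR adjusted p = 0.557). The count of risen genes in this list was 0 without Atg5-deficient replicate 2 or wild-type replicate 1, and 1 without wild-type replicate 5, where 2.56%, 2.18% and 2.31% of all genes were called higher. That of fallen genes was 1 without Atg5-deficient replicate 1 or 2 or wild-type replicate 1 or 5. In those fits 1.14%, 1.08%, 1.47% and 1.22% of all genes were called lower, in that order.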

How the data were processed

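RNA-seq was carried out on 11 libraries labelled as CD4 T cells with a stranded total RNA kit, per the labels' protocols. The design text has cells sorted from liver by flow cytometry. The extraction protocol instead has RNA taken from sections of paraffin blocks, and the labels do not settle which holds. The authors deposited a table of raw read counts per Ensembl gene, 1 column per library. The submitters' processing notes name STAR, featureCounts and GRCm38. Versions, annotation release, strand setting and handling of multimapping reads: not given in the sources used here. There were 0 columns of other samples.

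Identifiers were matched to GENCODE M21 (GRCm38): 52125 of 56748 matched, with 89.3% to 96.5% of a library's reads. After filterByExpr (count 10, total 15) and TMM scaling, edgeR's robust quasi-likelihood F test compared genotypes, with Benjamini-Hochberg adjustment over 17987 genes. A standard error is the log2 fold change over the root of F, from which 95% intervals follow. RPKM uses M21 union exon lengths, which may differ from the authors' annotation. Marker sums use total counts, and other CPM are TMM-scaled. The fit was also run on counts simulated from its own means and dispersions, with the outcome not reported here. Those counts hold no shifts of single libraries, so that run does not bear on them. Isozyme ratios are log2 ratios of counts plus 0.5 within a library, compared by exact permutation. Depth limits precision through counting error only where counts are low.

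Genotype labels gave the groups, and replicate numbers follow accession order and only name a library. The members, lists, pairs and tests were chosen with earlier results of these data known. All 37 members are named. Of each further list up to 6 genes with the smallest p are named. Myc and Mki67 were added beyond that rule, and some genes of the further lists are not reported here. Promoters are those of the 4 members with the smallest p, as far as entries exist, with that of Ldha added after the motif counts were seen, and protein sequences were not used here. The alternatives were other scalings, filters and tools (R 4.3.3 with edgeR 4.0.16, DESeq2 1.42.0 and limma 3.58.1), library sizes that leave out mitochondrial, haemoglobin and hepatocyte genes, the 8 libraries with consecutive title numbers, and leaving out each library in turn.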

Additional observations from a re-analysis of the deposited data

Results flagged for a closer look

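In 94 groups of libraries checked (37 genes and 10 ratios in each genotype), 6 held a library far from the others by Dixon's criterion, and chance flags about 1 in 20 groups. Atg5-deficient replicate 3 stood high for Slc2a1 (118 CPM) and for Pfkl (158 CPM). Atg5-deficient replicate 6 stood low for Aldoa, at 257 CPM. Wild-type replicate 2 stood high for Pgls (26.7 CPM) and Taldo1 (90.4 CPM) and low for the log2 ratio of Pdk1 to Pdk2 (3.69).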

How the results depend on the processing

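No paired analysis was possible because replicate numbers were given in accession order and pair nothing. The count of members that rose (10) was 16 with DESeq2, 19 with limma-voom, 6 with upper-quartile factors and 3 in the 8 libraries with consecutive title numbers, which hold fewer samples. The count that fell (2) was 1 without a low-count filter, where more genes were tested, and 0 in the 8 libraries. Leaving out 1 library gave 6 to 15 members higher and 2 to 2 lower. Of the further pathway genes, 3 were higher with DESeq2 or limma-voom, 1 with relative log expression factors, the strict filter or no filter, and 0 to 1 with 1 library left out, against 0. Those lower (1) were 4 with limma-voom, 0 without a filter or in the 8 libraries, and 0 to 1 with 1 left out. HIF-1 genes higher (4) were 7 with limma-voom, 1 with upper-quartile factors, 0 in the 8 libraries, and 1 to 6 with 1 left out. Nutrient regulators were 0 higher and 0 lower in the 8 libraries, and 0 to 3 higher and 1 to 2 lower with 1 left out. Cell cycle genes higher (15) were 1 in the 8 libraries and 9 to 20 with 1 left out. Over all genes, 797 higher and 434 lower became 1404 and 981 with DESeq2, 1966 and 1460 with limma-voom, 87 and 89 in the 8 libraries, 685 lower with upper-quartile factors, and 402 to 1410 higher and 191 to 733 lower with 1 left out. Isozyme ratios past the threshold (2) were 0 in the 8 libraries, where the design leaves almost no room to pass, and 2 to 4 with 1 left out. The cause of these shifts was not tested.

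Signs turned only for values near 0. The log2 fold change of Pdha1 (0.07) was -0.00 with upper-quartile factors and -0.04 (without Atg5-deficient replicate 5) to 0.14 with 1 library left out. That of Pgls (0.03) was -0.01 in the 8 libraries, -0.04 with upper-quartile factors, and -0.02 without Atg5-deficient replicate 5 or wild-type replicate 1 or 4, up to 0.18 without wild-type replicate 2. The Slc2a3 to Slc2a1 difference (-0.02) reached 0.22, 0.06 and 0.04 without Atg5-deficient replicate 3 or wild-type replicate 1 or 2, and -0.16 without Atg5-deficient replicate 6. The Aldoa to Aldoc difference (0.09) was -0.02 and -0.01 without wild-type replicate 2 or 5, and up to 0.20 without wild-type replicate 3. The cause was not tested. Counts were high enough that depth limits few members, Aldoc and Pfkfb4 being the rarest.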
